A study of Mus musculus with 12 samples.

Results

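The phagocyte NADPH oxidase was followed through 6 of its genes, Cybb, Cyba, Ncf1, Ncf4, Rac1 and Rac2, which were taken by symbol from a count table of 53801 genes and were all expressed highly enough to be tested. The table holds bulk RNA-seq counts of microglia sorted with magnetic beads for the surface receptor P2RY12, 72 h after transient occlusion of the middle cerebral artery (MCAO), a mouse model of ischemic stroke. There were 3 libraries for each of 4 groups. The cKO mice (conditional knockout) carry Cx3cr1-CreER+/- with both copies of the targeted gene floxed, and the WT mice carry the same Cre driver without the floxed allele. From each genotype came libraries of the ischemic ipsilateral (IL) and the non-lesion contralateral (CL) hemisphere, giving cKO IL, cKO CL, WT IL and WT CL. All mice had received tamoxifen at least 30 days before MCAO, were male or female and 2 to 3 months old by the methods of the study, and had undergone stroke, so CL is the other hemisphere of a stroke brain and not an uninjured brain. Cx3cr1-CreER is also active in other Cx3cr1-expressing myeloid cells, and the wait after tamoxifen was meant to let blood monocytes be replaced.

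NOX2 is the enzyme with which phagocytes make superoxide. At rest its catalytic core, a heterodimer of gp91phox (Cybb) and p22phox (Cyba) called cytochrome b558, sits in membranes, while the regulatory subunits, among them p47phox (Ncf1) and p40phox (Ncf4), wait in the cytosol. Phosphorylation of p47phox and loading of a Rac GTPase (Rac1 or Rac2) with GTP bring the complex together at the plasma membrane or the phagosome, where electrons pass from NADPH to oxygen. In the brain the oxidase is best known from microglia and from the blood-borne phagocytes that enter after injury, and loss of one of its phox subunits causes chronic granulomatous disease in humans.

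Core promoters were at hand for 3 of the 6 members, the catalytic pair and the organizer, and are shown beside the levels of these genes. They run from 250 bases before to 50 bases after the start site in RefSeq (GRCm38.p6), 5′ to 3′ on the coding strand. Capitals mark matches, on either strand, to GAGGAA (a core to which the myeloid factor PU.1 can bind), CCAAT (the CCAAT box) and GGGCGG (the GC box of Sp factors), which do not overlap each other here.
Cybb promoter: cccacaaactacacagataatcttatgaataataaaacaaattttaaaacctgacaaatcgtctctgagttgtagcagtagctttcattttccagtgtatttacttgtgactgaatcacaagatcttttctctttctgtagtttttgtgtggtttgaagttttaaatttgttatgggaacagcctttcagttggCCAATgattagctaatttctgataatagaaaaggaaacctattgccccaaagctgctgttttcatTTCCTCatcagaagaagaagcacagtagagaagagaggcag
Cyba promoter: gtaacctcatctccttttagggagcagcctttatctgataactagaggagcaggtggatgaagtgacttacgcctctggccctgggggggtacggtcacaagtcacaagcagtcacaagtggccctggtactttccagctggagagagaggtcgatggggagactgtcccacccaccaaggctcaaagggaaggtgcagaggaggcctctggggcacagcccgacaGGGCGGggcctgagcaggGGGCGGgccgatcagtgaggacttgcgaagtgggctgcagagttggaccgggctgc
Ncf1 promoter: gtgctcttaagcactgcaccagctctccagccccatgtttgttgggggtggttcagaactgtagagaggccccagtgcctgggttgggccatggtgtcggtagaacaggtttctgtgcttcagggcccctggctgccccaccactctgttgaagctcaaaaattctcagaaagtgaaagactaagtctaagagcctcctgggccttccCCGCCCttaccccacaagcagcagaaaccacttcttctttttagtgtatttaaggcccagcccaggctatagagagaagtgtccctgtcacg
The Cybb window lies at chrX:9469275-9469574, the Cyba window at chr8:122432891-122433190 and the Ncf1 window at chr5:134229576-134229875, all on the minus strand. The RefSeq start of Cybb lies inside the GENCODE gene span given below for that gene, which begins further upstream. Cybb held 1 CCAAT box 56 bases before the start and 1 GAGGAA core in reverse orientation 9 bases after it. Cyba held 2 GC boxes, 24 and 6 bases before the start, and Ncf1 held 1 in reverse orientation 42 bases before it. Such matches are common, being found in 28.3% (GAGGAA), 37.4% (CCAAT) and 35.7% (GGGCGG) of 32851 promoters of the same length. The base composition set the genes further apart, with 35.3% G and C in Cybb, a value above only 3.98% of promoters, 60.7% in Cyba and 54% in Ncf1. A match is a description of letters and not a binding site.

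The libraries differed in depth along the groups. Totals were 43961276 to 47256174 counts for cKO IL, 9743603 to 20349883 for cKO CL, 18425180 to 25166928 for WT IL and 2091512 to 12647526 for WT CL, and their TMM scaling factors ran from 0.618 to 1.64. Libraries are named A, B and C by the rising number in their column, which the IL and CL columns of a genotype share, and values are given in that order. 2 libraries stood apart from their groups for many of the genes below: WT IL A, which lay near the CL libraries, and WT CL C, the shallowest. Markers of homeostatic microglia were present in every library, their sum of 10 genes running from 1907 to 4670.4 CPM (counts scaled to library size) in cKO IL, while cKO CL held 2276 to 3982, WT IL 2915 to 5083 and WT CL 3049 to 9029.0. Group directions rest on the labels. Nothing in the sources used here ties a column to an animal, and p-values measure the spread between libraries.

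Cybb and Cyba, the membrane core, were both higher in the ischemic hemisphere of cKO mice, and Cybb also in that of WT mice. Of the 35674 genes tested, 2.94% were called higher and 0.513% lower in cKO IL over cKO CL, and 0.538% higher and 0.0701% lower in WT IL over WT CL (edgeR quasi-likelihood test, Benjamini-Hochberg adjusted p under 0.05). Among the 6 members 4 were called higher in cKO and 1 in WT, and 0 lower in either. Cybb (chromosome X, 9435252 to 9487771, minus strand, GRCm38), the electron-transferring subunit, stood at 577, 345 and 536 CPM in cKO IL, against 14.5, 32.7 and 70.5 CPM in cKO CL. In WT it stood at 25.9, 190 and 561 CPM in IL, against 24.4, 10.05 and 31.98 CPM in CL. All 3 cKO IL libraries lay above every CL library, whereas WT IL ran from the CL level in library A to the cKO IL level in library C, so the WT groups overlapped. The log2 fold change was 3.63 in cKO (standard error 0.78, 95% interval 2.02 to 5.24, adjusted p = 0.01672) and 3.55 in WT (0.78, 1.94 to 5.16, adjusted p = 0.04059, edgeR). In bulk samples like these, fewer cells of a type and less RNA per cell cannot be told apart.

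**Figure D1:**
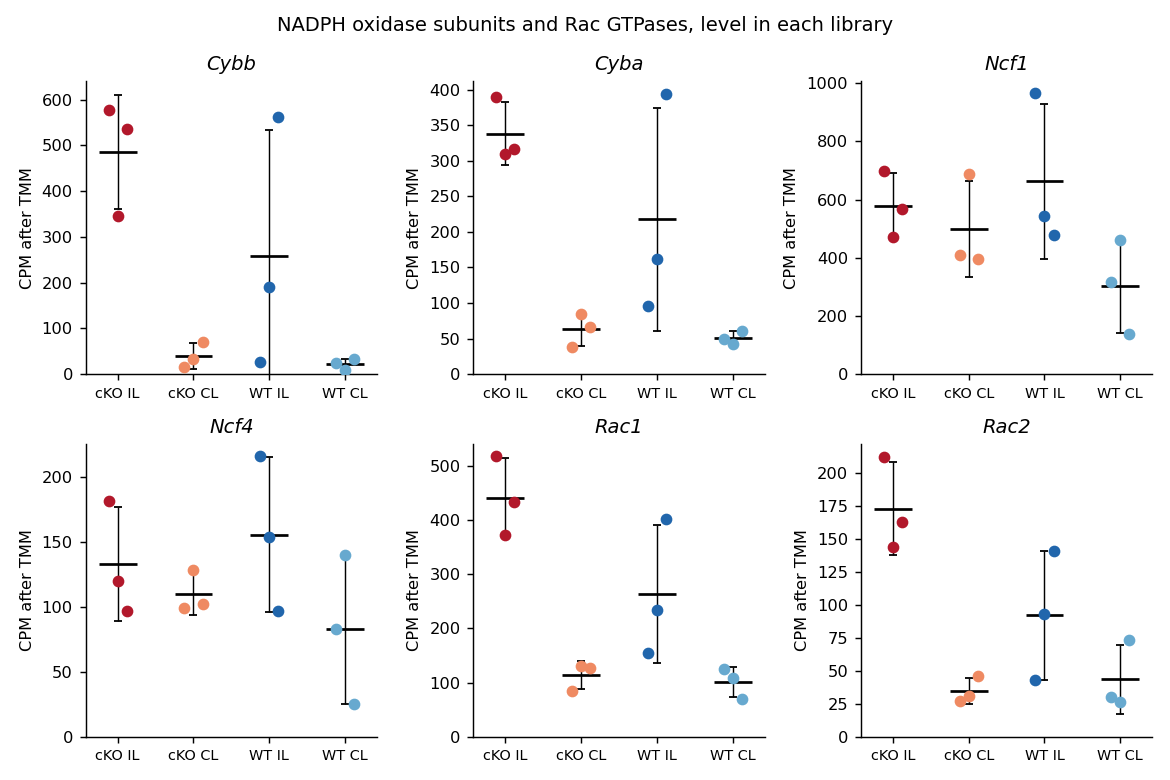
CPM after TMM scaling of the 6 members by library on a linear axis, in the order cKO IL, cKO CL, WT IL and WT CL, with the mean and SD of 3 libraries. The Cybb points of cKO IL lie between 345 and 577 CPM, those of WT IL between 25.9 and 561 CPM, and the Ncf1 and Ncf4 points of cKO IL and cKO CL share a range.

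The WT call for Cybb, the 1 call of a member in WT, rested on single libraries and was not made with voom, RLE scaling, total counts, thinned counts, the 6 WT libraries alone or TMM from genes of at least 50 CPM. Without WT IL C its log2 fold change was 2.31 (adjusted p = 0.3354), without WT CL B it was 3.21 (adjusted p = 0.07444), and without WT IL A it was 4.10 (adjusted p = 0.00055, edgeR throughout). In cKO, leaving out any 1 CL library ended the call while the log2 fold change stayed between 3.52 and 4.37 (adjusted p = 0.05095 to 0.1144).

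Cyba (chromosome 8, 122424776 to 122432930, minus strand), which encodes p22phox, the partner that stabilizes gp91phox and docks p47phox, stood at 389, 310 and 316 CPM in cKO IL, against 38.3, 85.0 and 66.6 CPM in cKO CL. WT IL held 96.2, 162 and 395 CPM, against 49.8, 42.6 and 61.0 CPM in WT CL. No IL library of either genotype fell to the level of its CL group. The log2 fold change was 2.42 in cKO (standard error 0.52, 95% interval 1.35 to 3.49, adjusted p = 0.01672), while that of 2.09 in WT (0.51, 1.03 to 3.15, adjusted p = 0.05709, edgeR) missed the threshold. For scale, groups that do not overlap were seen with IL higher for 18.5% and with IL lower for 35.9% of all genes tested in cKO, and for 10.3% and 6.62% in WT. Without WT IL A, WT CL A or WT CL C the WT difference of Cyba passed, at 2.42 to 2.45 on the log2 scale (adjusted p = 0.006765 to 0.04344, edgeR). In cKO it was lost without any 1 CL library (adjusted p = 0.06436 to 0.125) and without cKO IL A (2.30, adjusted p = 0.05087).

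The ratio of the 2 core genes within a library, which no scaling between libraries can move, was described without a test. The log2 ratio of Cybb to Cyba counts was 0.57, 0.15 and 0.76 in cKO IL, against -1.40, -1.38 and 0.08 in cKO CL. WT IL held -1.89, 0.23 and 0.51, against -1.03, -2.08 and -0.93 in WT CL. Each cKO IL library thus had more Cybb than Cyba counts, and 5 of the 6 CL libraries had fewer. Per kilobase of exon Cyba was nonetheless the more abundant message throughout, at 326 ± 42.7 CPM per kb in cKO IL, against 83.6 ± 21.3 for Cybb, and at 49.2 ± 8.94 in WT CL, against 3.81 ± 1.92 for Cybb (SD, n = 3).

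Both Rac genes were higher in cKO IL than in cKO CL. Rac1 (chromosome 5, 143503634 to 143528036, minus strand), the GTPase present in nearly all cells, stood at 519, 373 and 433 CPM in cKO IL, against 84.8, 131 and 128 CPM in cKO CL. WT IL held 155, 233.4 and 403 CPM, against 124, 108 and 70.4 CPM in WT CL. The IL and CL groups were separate in both genotypes. The log2 fold change was 1.95 in cKO (standard error 0.46, 95% interval 0.99 to 2.90, adjusted p = 0.02764) and 1.39 in WT (0.46, 0.44 to 2.33, adjusted p = 0.1282, edgeR), the second not past the threshold. Rac1 shares 51.4% of its exon bases with Daglb on the opposite strand, and whether reads were counted by strand is not stated, so its level may hold reads of both. Daglb itself differed by -0.03 in cKO and 0.60 in WT on the same scale, with adjusted p of 0.9651 and 0.4873 (edgeR).

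Rac2 (chromosome 15, 78559167 to 78572783, minus strand), the form restricted largely to blood-lineage cells, stood at 213, 144 and 163 CPM in cKO IL, against 27.2, 30.9 and 46.3 CPM in cKO CL. WT IL held 42.8, 92.8 and 141 CPM, against 30.6, 26.7 and 73.4 CPM in WT CL. The cKO groups were separate, and in WT library A of IL lay below library C of CL. The log2 fold change was 2.31 in cKO (standard error 0.53, 95% interval 1.21 to 3.42, adjusted p = 0.02362) and 1.09 in WT (0.52, 0.02 to 2.16, adjusted p = 0.2668, edgeR). Without both WT IL A and WT CL C, a pair chosen after their values were seen, the WT difference was 2.23 (adjusted p = 0.005792, edgeR). In cKO both Rac calls were lost without any 1 CL library or without cKO IL A, and that of Rac1 also without cKO IL C, at log2 fold changes between 1.81 and 2.58 (adjusted p = 0.06241 to 0.162, edgeR). Over all 18 alternatives run for this comparison, the cKO call was lost in 10 for Rac1 and in 7 for Rac2.

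The log2 ratio of Rac2 to Rac1 counts was -1.29, -1.37 and -1.41 in cKO IL, against -1.64, -2.09 and -1.46 in cKO CL. It was -1.85, -1.33 and -1.52 in WT IL, against -2.02, -2.01 and 0.06 in WT CL. The cKO groups did not overlap, with cKO IL higher, and the WT groups did. Library C of WT CL, with 2091512 counts in all, was the one in which Rac2 reached the count of Rac1.

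Ncf1 and Ncf4, which encode the cytosolic organizer p47phox and its partner p40phox, did not pass the test between hemispheres in either genotype. Ncf1 (chromosome 5, 134220053 to 134229625, minus strand) stood at 698, 470 and 568 CPM in cKO IL, against 411, 688 and 396 CPM in cKO CL. WT IL held 966, 543 and 477 CPM, against 315, 460 and 137 CPM in WT CL. The cKO groups overlapped, and the WT groups were separate by the small gap between IL C and CL B. The log2 fold change was 0.22 in cKO (standard error 0.47, 95% interval -0.77 to 1.20, adjusted p = 0.7556) and 1.12 in WT (0.48, 0.13 to 2.12, adjusted p = 0.2228, edgeR). The cKO interval ends below the fold changes of Cybb, Cyba, Rac1 and Rac2 in that comparison. It overlaps the interval of Rac1 (0.99 to 2.90), and members were not tested against each other. Ncf1 shares 11.1% of its exon bases with Gtf2ird2 on the opposite strand, which differed by -0.48 in cKO and 1.05 in WT (adjusted p = 0.5446 and 0.3247, edgeR).

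Ncf4 (chromosome 15, 78244801 to 78262580, plus strand), whose product binds the phosphoinositide PI(3)P on phagosomes, stood at 181, 120 and 97.1 CPM in cKO IL, against 99.4, 128 and 102 CPM in cKO CL. In WT it was at 216, 153 and 96.7 CPM in IL, against 82.8, 140 and 25.5 CPM in CL. The ranges overlapped in both genotypes. The log2 fold change was 0.27 in cKO (standard error 0.52, 95% interval -0.81 to 1.35, adjusted p = 0.7168) and 0.91 in WT (0.53, -0.18 to 1.99, adjusted p = 0.3626, edgeR). The direction of Ncf1 and Ncf4 in cKO depends on the scaling: with total counts in place of TMM they differed by -0.65 and -0.63 (adjusted p = 0.2276 and 0.3071, edgeR), Ncf1 then standing at 396 ± 52.2 CPM in cKO IL and 619 ± 126 in cKO CL (SD, n = 3). That scaling moved the median log2 fold change of all genes tested to -2.26, against -1.33 with TMM, and under it Cybb (2.79) and Cyba (1.58) were still called in cKO (adjusted p = 0.03458 and 0.04228) while Rac1 (1.08) and Rac2 (1.42) were not (adjusted p = 0.07263 and 0.08715, edgeR). Thinned to the smallest library, 0 of the 6 members were called in cKO, and with TMM factors from genes of at least 50 CPM, 1 was.

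**Figure D2:**
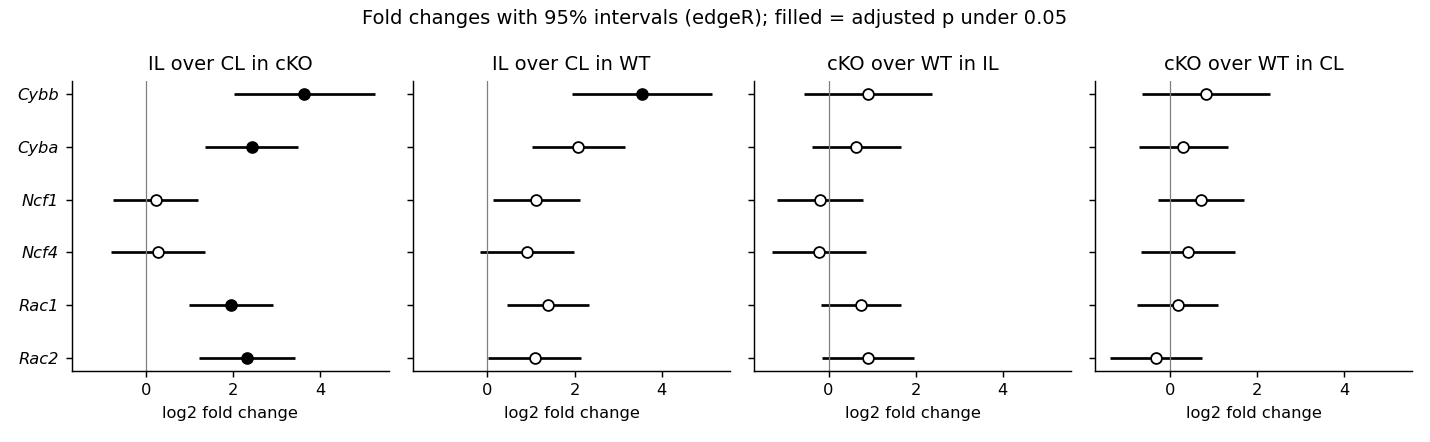
Log2 fold change with its 95% interval for each member in the 4 comparisons between groups, from 1 edgeR fit of 12 libraries. For IL over CL in cKO the intervals of Cybb, Cyba, Rac1 and Rac2 lie above 0, the lowest bound being 0.99 for Rac1, and those of Ncf1 and Ncf4 include 0.

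Within a library the organizer and the catalytic subunit were nearest to equal counts in cKO IL and in WT IL C. Ncf1 had 1.21, 1.37 and 1.06 counts for each Cybb count in cKO IL, against 28.3, 21.0 and 5.63 in cKO CL. WT IL held 37.3, 2.86 and 0.850, against 12.9, 45.8 and 4.29 in WT CL. The cKO groups did not overlap, whereas WT IL ran from the lowest value of all to one above every cKO library. Ncf4 tracked Ncf1 closely, with a mean log2 ratio of -2.15 ± 0.34 for cKO IL, -2.15 ± 0.25 for cKO CL, -2.10 ± 0.24 for WT IL and -2.03 ± 0.36 for WT CL (SD, n = 3 each).

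**Figure D3:**
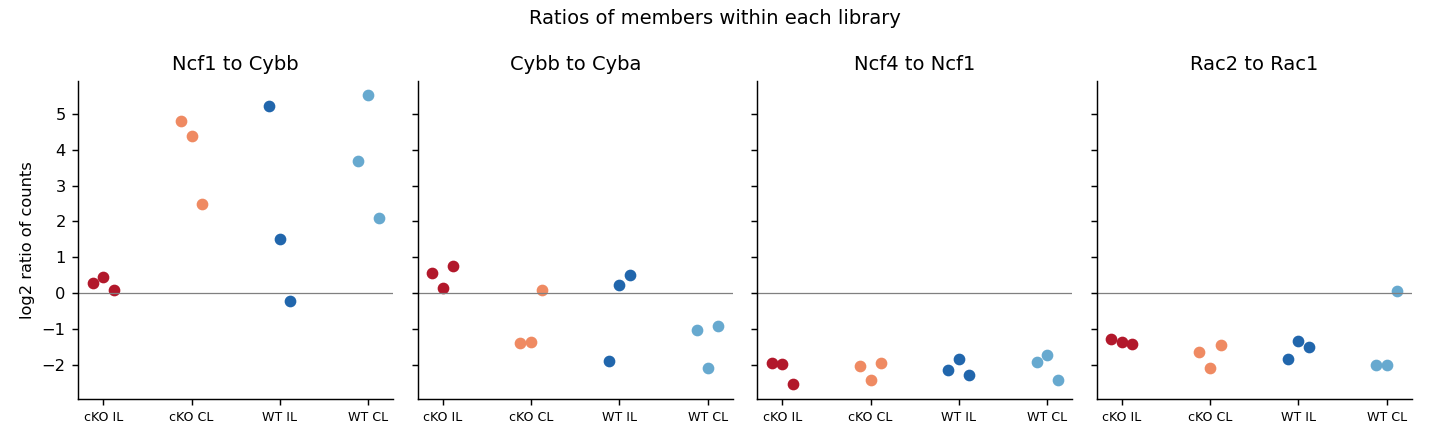
Log2 ratio of counts of pairs of members in each library, in the order cKO IL, cKO CL, WT IL and WT CL. The ratio of Ncf4 to Ncf1 keeps to a narrow band in all groups, and that of Ncf1 to Cybb averages 0.27 in cKO IL and 3.90 in cKO CL.

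The order of the group means, given in CPM, was the same for Cybb, Cyba and Rac1, with cKO IL highest (486, 338 and 442), then WT IL (259, 218 and 264), then cKO CL (39.2, 63.3 and 115) and WT CL lowest (22.1, 51.2 and 101). For Rac2 the order was cKO IL (173), WT IL (92.2), WT CL (43.5) and cKO CL (34.8). For Ncf1 and Ncf4 it was WT IL (662 and 155), cKO IL (579 and 133), cKO CL (498 and 110) and WT CL (304 and 82.7). With total counts in place of TMM the orders of Cybb, Cyba, Rac1 and Rac2 were the same, but Ncf1 ran from cKO CL (619) and WT IL (590.5) to cKO IL (396) and WT CL (384), and Ncf4 from WT IL (139.9) and cKO CL (139) to WT CL (103) and cKO IL (89.9). Every neighbouring pair in the TMM orders that was tested missed the threshold (edgeR). WT IL and cKO CL, neighbours for Cybb, Cyba and Rac1, were not tested against each other, and of these genes only Cybb had overlapping values there.

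Between genotypes no member passed the test in either hemisphere, and 0% of all genes tested did in either direction. In cKO IL over WT IL the log2 fold changes were 0.91 for Cybb (95% interval -0.56 to 2.37), 0.64 for Cyba (-0.39 to 1.66), 0.74 for Rac1 (-0.18 to 1.67), 0.91 for Rac2 (-0.15 to 1.97), -0.19 for Ncf1 (-1.18 to 0.79) and -0.23 for Ncf4 (-1.30 to 0.85), each with an adjusted p of 0.9968 (edgeR). An unadjusted p below 0.05 was reached by 0 members and by 2.36% of genes tested, the lowest of a member being 0.0894 for Rac2. The 3 cKO IL libraries of Rac2 all lay above WT IL, which was so of 4.83% of genes, and 0 members lay wholly below, which was so of 4.39%. The interval of each member includes a 2-fold difference. With voom and quality weights, which lower the weight of libraries that lie far from their group, Cybb (1.46), Cyba (1.08), Rac1 (0.93) and Rac2 (0.95) were called higher in cKO IL (adjusted p = 0.003369 to 0.01697), among 4248 genes in all, whereas DESeq2 called 0 members and 4 genes.

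In cKO CL over WT CL the log2 fold changes ran from -0.32 for Rac2 (95% interval -1.38 to 0.74) to 0.83 for Cybb (-0.64 to 2.31), with 0.71 for Ncf1 (-0.28 to 1.70), and every adjusted p was 0.9996 (edgeR). The lowest unadjusted p of a member was 0.1499, where 4.72% of genes tested were below 0.05, and no member's groups were separate, where those of 9.27% of genes were with cKO CL higher and of 1.38% with cKO CL lower. The stroke response of a gene, IL over CL, was then compared between the genotypes. Its difference, cKO minus WT on the log2 scale, was largest in size for Rac2 at 1.23 (-0.27 to 2.73, unadjusted p 0.1036) and Ncf1 at -0.91 (-2.30 to 0.49), was 0.08 for Cybb (-1.99 to 2.14), and had an adjusted p of 1 for all 6 (edgeR, 0% of genes called in either direction, 0 members and 3.8% of genes with an unadjusted p below 0.05).

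The members that were higher in IL moved with a sum of blood monocyte markers from which Fn1 was left out. Fn1 was left out after its values were seen, since it outweighed the others in IL. It also outweighed them in WT CL A and in every cKO CL library. The sum of the 9 markers without Fn1 was 2535, 1291 and 723 CPM in cKO IL, against 112, 137 and 129 CPM in cKO CL. WT IL held 117, 382 and 1095 CPM, against 102, 80.2 and 157 CPM in WT CL. WT IL A, with Cybb at 25.9 CPM, was the IL library at the CL level of these markers. With Fn1 the sum of the 10 ran from 7105 to 18072 CPM in cKO IL, while cKO CL held 258 to 649, WT IL 569 to 7648 and WT CL 153 to 6079, and 5 of the 10 were called higher in cKO IL over cKO CL and 2 in WT IL over WT CL. The WT CL value of 6079 CPM was that of library A, whose sum without Fn1 was 102 CPM and whose Cybb level was 24.4 CPM. Ms4a4c was at 0 in all 3 WT CL libraries and Plac8 in 2 libraries, while Ccr2 was above 0 in every library. The 8 markers of border-associated macrophages summed to 599 to 1408 CPM in cKO IL, while cKO CL held 187 to 297, WT IL 206 to 1013 and WT CL 110 to 318. F13a1, which the monocyte list also holds, made up 629 ± 311 CPM of this in cKO IL and 56.4 ± 19.2 in cKO CL (SD, n = 3). In cKO IL over cKO CL, 6 of the 8 had a log2 fold change above 0 and 3 were called higher. Those called were F13a1 (3.48, adjusted p = 0.01093), Ms4a7 (3.84, adjusted p = 0.01861) and Pf4 (2.93, adjusted p = 0.0499, edgeR). Cd163 and Lyve1 went the other way. Cd163 averaged 28.1 ± 7.59 CPM in cKO IL and 73.6 ± 35.3 in cKO CL (SD, n = 3, log2 fold change -1.39, adjusted p = 0.14, edgeR), and Lyve1 differed by -0.79 (adjusted p = 0.6308). The 10 neutrophil markers summed to 442 to 846 CPM in cKO IL, while cKO CL held 311 to 575, WT IL 523 to 909 and WT CL 164 to 555, with Csf3r, which microglia also express, at 549 ± 181 CPM in cKO IL and 433 ± 154 in cKO CL, Ly6g at 0 in 2 libraries and Retnlg in 4. In cKO IL over cKO CL 7 of the 10 neutrophil markers had a log2 fold change above 0. In WT IL over WT CL 3 did, and none was called in either. Mmp8 differed by 2.98 in cKO and 3.45 in WT (adjusted p = 0.08741 and 0.09581, edgeR). In cKO IL over WT IL 7 of the 10 lay above 0, among them S100a8 (1.61) and S100a9 (1.28), again none called. The part of monocytes, border-associated macrophages and neutrophils in the member levels was not tested.

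**Figure D4:**
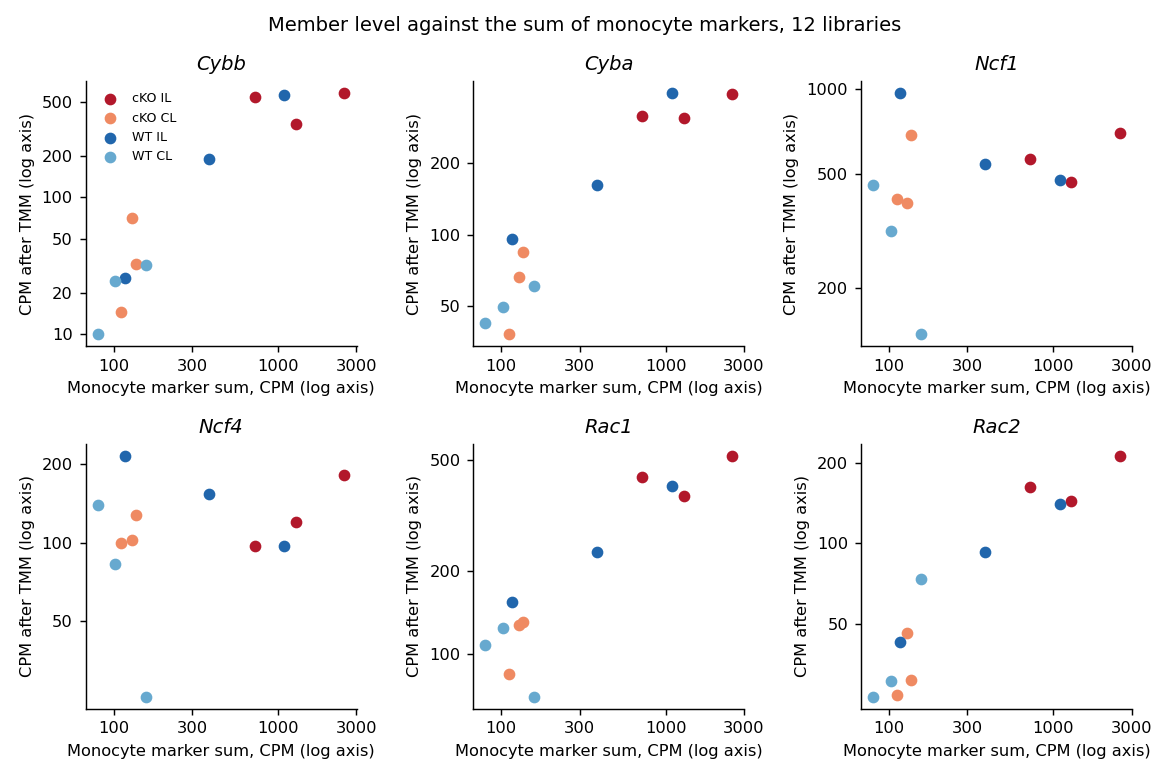
CPM after TMM of each member against the summed CPM of 9 monocyte markers in the 12 libraries, both on log axes. The cKO IL points and WT IL C lie at marker sums from 723 to 2535 CPM with Cybb from 345 to 577 CPM, and the Ncf1 and Ncf4 points show no such separation.

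Around the oxidase, the genes that load Rac, feed NADPH and remove peroxide were described from 7 lists, chosen with earlier results known and therefore given as counts. In cKO IL over cKO CL, where the median of all genes tested was -1.33 and 2.94% were called higher, 1 of 5 genes of assembly, stability and proton flow was called higher, as were 3 of 9 regulators of Rac, 4 of 7 of NADPH supply, 6 of 10 of superoxide and peroxide disposal, 1 of 6 transcription factors and 0 of 7 kinases and of 9 genes of other NADPH oxidases. None was called lower. In WT IL over WT CL and in both comparisons of genotypes none of these genes was called in either direction, although several WT fold changes, given below, were about as large as in cKO. The difference of the stroke response between the genotypes had an adjusted p of 1 for every gene of these lists (edgeR). Over all genes, cKO IL over cKO CL gave 1233 calls, and 0 to 507 when 1 library was left out.

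Rap1a, a small GTPase found with cytochrome b558, stood at 159, 116 and 147 CPM in cKO IL, against 17.8, 22.8 and 28.9 CPM in cKO CL (log2 fold change 2.60, adjusted p = 0.01561, edgeR). It was at 27.2, 62.2 and 138 CPM in WT IL, against 21.6, 19.6 and 14.1 CPM in WT CL (2.03, adjusted p = 0.07314, edgeR). Of the Rac regulators, the inhibitors that hold Rac and related GTPases in the cytosol, Arhgdib (2.38, adjusted p = 0.01996) and Arhgdia (1.72, adjusted p = 0.04568), and the exchange factor Vav3 (2.87, adjusted p = 0.02936) were higher in cKO IL (edgeR). In WT the log2 fold changes were 1.92 for Arhgdib, 1.37 for Arhgdia and 0.83 for Vav3 (adjusted p = 0.07802, 0.1408 and 0.5199, edgeR). Arhgdib averaged 198 ± 85.3 CPM in cKO IL and 38.0 ± 8.15 in cKO CL (SD, n = 3).

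NADPH itself comes largely from the pentose phosphate pathway and from isocitrate. Taldo1 (2.76, adjusted p = 0.02197), Idh1 (3.10, adjusted p = 0.03096), G6pdx (2.01, adjusted p = 0.04316) and Tkt (1.94, adjusted p = 0.0443) were higher in cKO IL over cKO CL in log2 (edgeR). In WT they differed by 1.18 (Taldo1), 1.77 (Idh1) and 0.50 (G6pdx), with adjusted p of 0.2077 to 0.6492, and Tkt, whose groups did not overlap there either, had an adjusted p of 0.07491 (edgeR). Taldo1, a pentose phosphate transaldolase, averaged 238 ± 75.8 CPM in cKO IL and 35.2 ± 15.7 in cKO CL (SD, n = 3). Enzymes that remove peroxide did the same, with Gpx1 at 2.83 (adjusted p = 0.01837), Prdx5 at 2.51 (adjusted p = 0.02431), Prdx1 at 4.07 (adjusted p = 0.03395) and Prdx6 at 2.57 (adjusted p = 0.03911, edgeR). The WT values were 2.19 for Gpx1, 1.58 for Prdx5, 4.26 for Prdx1 and 0.94 for Prdx6, with adjusted p of 0.05703 to 0.4493 (edgeR). That of Prdx1 rested mostly on library C, with 12.7, 39.5 and 523 CPM in WT IL, against 18.95, 9.90 and 0.293 CPM in WT CL, and the groups overlapped. Gpx1 averaged 503 ± 245 CPM in cKO IL and 70.8 ± 19.8 in cKO CL (SD, n = 3).

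Cebpb, a transcription factor of myeloid cells, was the 1 called of its list (1.98, adjusted p = 0.0329, edgeR), averaging 612 ± 109 CPM in cKO IL and 156 ± 59.4 in cKO CL (SD, n = 3). Its WT fold change was 1.94 (adjusted p = 0.06476, edgeR). Prkca, a kinase of p47phox, differed by -1.97 (adjusted p = 0.06846) and Duox1, an oxidase of epithelia, by -2.38 (adjusted p = 0.1007, edgeR), neither past the threshold. Duox1 averaged 2.81 ± 1.03 CPM in cKO IL and 14.7 ± 3.71 in cKO CL, and 5.75 ± 5.01 CPM in WT IL and 24.4 ± 22.3 in WT CL (SD, n = 3 each), with a WT log2 fold change of -2.07 (adjusted p = 0.1894, edgeR). In cKO 0 of the 9 genes of other NADPH oxidases had a log2 fold change above 0 (median -2.82), against 11262 of the 35674 genes tested. The groups of that comparison did not overlap, with IL lower, for 35.9% of all genes. The 9 genes were near the floor in cKO IL, with means from 0.0944 (Duoxa2) to 2.81 CPM (Duox1). In cKO CL the means ran from 2.03 (Duoxa2) to 14.7 CPM (Duox1).

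**Figure D5:**
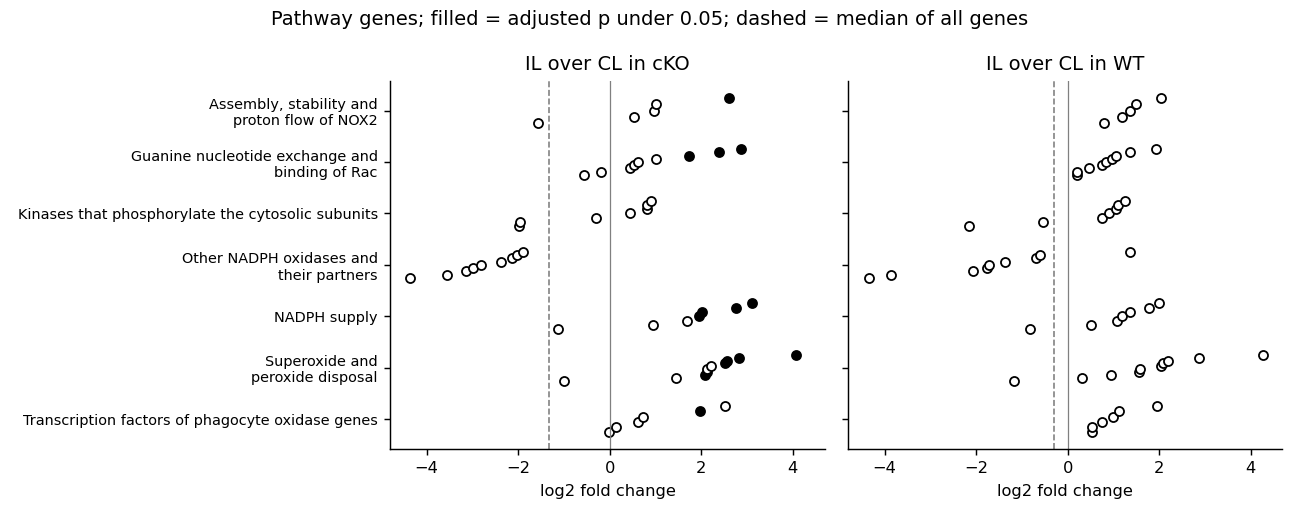
Log2 fold change of IL over CL in cKO and in WT for the genes of each pathway list, filled where the adjusted p was under 0.05, with a dashed line at the median of all genes tested (-1.33 in cKO and -0.31 in WT). Filled points appear in cKO and not in WT, where some folds are as large (Prdx1 at 4.07 in cKO and 4.26 in WT), and every gene of other NADPH oxidases lies below 0 in cKO. These oxidase genes were near the floor in cKO IL, at mean levels of 2.81 CPM or less.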

How the data were processed

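The authors prepared stranded total RNA libraries (SMARTer pico V2), sequenced them on a HiSeq X, dropped reads from ribosomal RNA and mitochondria, ran STAR (version 2.5.3a, genome mm10) inside Partek Flow (version 8.0), and deposited raw counts per gene, with no scaling. The annotation release and the strand setting of the counting are not given in the sources used here. The count columns were tied to groups by name and carry numbers, by whose order the libraries of a group are lettered.

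Of 53801 genes, 35674 passed edgeR's filterByExpr on the 4 groups. After TMM scaling, 1 quasi-likelihood fit (edgeR 4.0.16, R 4.3.3) of the 12 libraries, with a mean per group and no block, gave two-sided tests. Calls were made where the Benjamini-Hochberg value over all genes fell below 0.05. Levels are CPM after TMM, divided by exon length (GENCODE vM21, GRCm38) where genes are compared. Library totals of 2091512 to 47256174 counts set the precision, and every member had at least 67 counts in each library. The procedure was tested on simulated data, with the same mean level of a gene in all groups apart from added changes. These data held neither the shift of the median of all genes between hemispheres nor outlying libraries, and cannot check the calls for either.

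The members and lists were chosen with earlier results of these data known. Named genes are the 6 members, up to 4 called genes with the lowest p of each pathway list (or, with none called, the gene with the lowest p), and the 3 genes most like each member. Some genes under this rule, the targeted gene and another subunit of the complex are not reported here. The alternatives comprised DESeq2 1.42.0, limma 3.58.1 (voom, quality weights), RLE, upper quartile and total count scaling, dropping the filter, requiring 10 counts throughout, counts thinned to the smallest library, the libraries compared alone and leaving out each library. Added after the data were seen were a block by column number, WT IL A and WT CL C left out together, TMM from genes of at least 50 CPM, and the monocyte sum without Fn1.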

Additional observations from a re-analysis of the deposited data

How the results depend on the processing

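Depth and 3 libraries a group limit these calls, and the cause of the changes below was not tested. The genes called in cKO CL over WT CL, cKO IL over WT IL, WT IL over WT CL, cKO IL over cKO CL and the difference of the stroke response numbered 0, 0, 217, 1233 and 0, and the members 0, 0, 1, 4 and 0. DESeq2 called 27, 4, 3896, 6351 and 4 genes, and 2 members in WT. With voom 4248 genes and 4 members were called in cKO IL over WT IL, 0 and 0 in WT, and 15450 genes in cKO. RLE gave 81 genes and 0 members in WT, upper quartile scaling 2 members in WT and 618 genes in cKO, and total counts 42 genes and 0 members in WT and 2 members in cKO. With no filter 22, 9, 1557, 2561 and 17 genes were called, and 2 members in WT. The filter of 10 counts gave 1069 genes and 2 members in WT and 2885 genes in cKO. Thinning gave 2 genes in cKO IL over WT IL, 29 genes and 0 members in WT, and 258 genes and 0 members in cKO. The libraries compared alone gave 0 genes and 0 members in WT and 11159 genes in cKO. Leaving out WT IL A and WT CL C gave 2334 genes and 3 members in WT, 6042 genes in cKO and 20 genes in the difference. TMM from genes of at least 50 CPM gave 132 genes and 0 members in WT and 1 member in cKO. Leaving out 1 library at a time gave 0 to 32, 0 to 0, 5 to 1381, 0 to 507 and 0 to 3 genes, and 0 to 2 members in WT and 0 to 4 in cKO. With the column number as a block, added after the data were seen, 1 gene and 0 members were called in WT and 787 genes and 3 members in cKO, where Rac1 was lost (1.96, adjusted p = 0.05127, edgeR). The deviations of libraries from their group means correlated weakly between IL and CL of the same number (r of -0.07, 0.12 and -0.06 in WT and 0.08, 0.13 and 0.17 in cKO). Each cKO IL library nonetheless correlated best with its own number. With 3 libraries a group these values cannot decide whether the numbers mark pairs. A block by the replicate numbers of the labels was not run because the columns do not carry them.

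Signs turned only for differences that were not called, given here in log2. In cKO CL over WT CL they were Rac2 with voom (0.21), Rac1 on thinning (-0.01), and Cyba (-0.10) and Rac1 (-0.04) with TMM from genes of at least 50 CPM. In cKO IL over WT IL they were Ncf1 with voom (0.02) and with no filter (0.01), and in WT IL over WT CL Rac2 with TMM from genes of at least 50 CPM (-0.09). In cKO IL over cKO CL, Ncf1 and Ncf4 turned with total counts (-0.65 and -0.63), the filter of 10 counts (-0.24 and -0.20), thinning (-0.34 and -0.43) and TMM from genes of at least 50 CPM (-0.73 and -0.71). In the difference of the stroke response Cybb turned with upper quartile scaling (-0.25, Cyba -0.00), thinning (-0.42) and both WT libraries left out (-0.64, Ncf1 0.01, Ncf4 0.32). Leaving out 1 library at a time, the ranges that cross 0 were, in cKO CL over WT CL, Ncf4 -0.07 to 1.02, Rac1 -0.06 to 0.45 and Rac2 -0.57 to 0.23. In cKO IL over WT IL they were Ncf1 -0.38 to 0.18 and Ncf4 -0.52 to 0.09, and in cKO IL over cKO CL Ncf4 -0.02 to 0.53. In the difference they were Cybb -0.46 to 1.33, Cyba -0.03 to 1.07 and Ncf4 -1.24 to 0.06.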

Other observations

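The 6 members fell into 2 patterns over the 12 libraries. Pearson's r of log2 CPM was 0.86 to 0.96 among Cybb, Cyba, Rac1 and Rac2, 0.94 between Ncf1 and Ncf4, and 0.02 to 0.51 across these sets, given as a description since the libraries share groups, depth and scaling. Of 10330 genes of at least 10 CPM on average, those most like Cybb were Stt3a (0.992), a subunit of oligosaccharyltransferase, Reep3 (0.989) and Xiap (0.989), an inhibitor of apoptosis. Those most like Cyba were Sdcbp (0.990), Srgn (0.990), the proteoglycan core serglycin, and Vps13c (0.989). Rac1 was most like Scarb2 (0.992), a lysosomal membrane protein, Csnk1a1 (0.992) and Cfl1 (0.991), the actin-severing cofilin, and Rac2 was most like Gpr137b-ps (0.991), Gcnt2 (0.986) and Arhgap1 (0.982). Ncf1 was most like Tnfaip3 (0.975), Pnpla7 (0.973) and Inpp5d (0.970), and the genes named as most like Ncf4 were Inpp5d (0.967) and Trpv2 (0.961). Inpp5d, which encodes the inositol phosphatase SHIP, was the gene on both lists.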
